A study of Homo sapiens with 12 samples.

Results

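Ectodysplasin signalling was followed here through 5 genes: EDA2R, EDA, EDAR, EDARADD and TNFRSF19. EDA2R was chosen by its rise in cisplatin-treated over untreated cells on these same arrays, so its values in that contrast are given as a description with no test, while the other 4 genes were listed as relatives of it in the pathway. Of the 5, 4 have a row of their own on the arrays, out of 14232 genes measured. EDARADD shares its only row with ENO1 and was therefore not analysed here. The cells were A549, a human lung adenocarcinoma line, either untreated or exposed to cisplatin, a platinum drug that crosslinks DNA, at a no-observed-effect level (NOEL), the concentration that inhibited a small fraction of the cells without visible change in their shape. The drug was added on the day after seeding. RNA was collected after 24 and 48 h, with 3 arrays for each of the 4 conditions, so that 6 arrays of cisplatin-treated cells were compared with 6 of untreated cells. The study's methods speak of independent experiments, but no label ties an array to one of them, and the p-values measure only the spread between these arrays.

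Ectodysplasin, the product of EDA, is a membrane ligand of the TNF family that is cut free by furin and is best known for its role in the development of hair, teeth and sweat glands. Its splice forms A1 and A2 bind different receptors, A1 binding EDAR and A2 binding EDA2R, which is also called XEDAR. EDAR recruits the adaptor EDARADD through a death domain, whereas EDA2R has no death domain and binds TRAF adaptors directly, and both routes lead to NF-kB. TNFRSF19, or TROY, is a receptor of the same family that resembles EDAR in its extracellular part and also binds TRAF adaptors. EDA2R is known as a target gene of p53, which acts when DNA is damaged, and A549 cells carry p53 of the normal sequence.

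The arrays are Affymetrix exon arrays, and each value is a log2 signal for a transcript cluster, which gives 1 number for all splice forms of a gene. The A1 and A2 forms of EDA can therefore not be told apart here. On this scale a difference of 1 is a doubling of signal. Values over the whole table ranged from 2.14 to 14.31. Untreated 24 h replicate 3 stood apart, with a mean Pearson correlation with the other arrays of 0.972, where each of the others had between 0.987 and 0.990. The standard deviation of all rows of an array, called its spread below, was 2.12 on that array and between 2.24 and 2.33 on the rest. Keratin genes of epithelial cells were bright (KRT8 at percentile 99.9, KRT18 at 95.6 and KRT19 at 81.4 of the genes), as were the aldehyde dehydrogenases ALDH1A1 (99.9) and ALDH3A1 (99.4), which are high in A549. EPCAM lay at 31.1, and the leukocyte gene PTPRC lay at 1.04 and the fibroblast gene DCN at 1.90. The leukocyte gene CD3E lay at 7.42 and the endothelial gene PECAM1 at 9.17. The markers CDH5 (29.1) and COL3A1 (28.3) of other cell types lay near EPCAM, and CD68, named for macrophages but also made by other cells, lay at 90.9. None of these 7 leukocyte, endothelial and fibroblast markers passed an unadjusted p under 0.05 in limma between cisplatin-treated and untreated cells, with differences between -0.18 and 0.16. Of the 6 measured epithelial and A549 markers, KRT19 (0.26, adjusted p = 0.991 from limma) and ALDH3A1 (0.33, adjusted p = 0.393) were higher at that threshold, and neither passed adjustment. Of all genes, 1.73% were higher at that threshold and 3.33% passed it in either direction. The A549 enzymes NQO1, AKR1B10 and AKR1C1 were also listed but not measured.

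EDA2R was about 2-fold higher after the NOEL of cisplatin, at 24 h and at 48 h alike. In untreated cells at 24 h its log2 values were 9.46, 8.88 and 8.79 on replicates 1, 2 and 3, and in cisplatin-treated cells at 24 h they were 10.09, 10.03 and 10.31. At 48 h the untreated arrays gave 9.56, 9.04 and 9.17, and the cisplatin arrays gave 10.25, 10.10 and 10.25. All 6 arrays of cisplatin-treated cells lay above all 6 untreated arrays, and the lowest of the former exceeded the highest of the latter by 0.47. Over all genes, 0.218% were higher without overlap in this way, a share from which nothing is read for EDA2R because the same contrast chose it. The replicate 1 arrays were the highest of the untreated ones at both times.

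The untreated mean of EDA2R was 9.15 ± 0.31 (SD, n = 6 arrays), and the mean after cisplatin was 10.17 ± 0.11 (SD, n = 6 arrays). The difference was 1.02 on the log2 scale (standard error 0.12), or 2.03-fold with a 95% interval of 1.70 to 2.43. This was the 2nd highest difference among 14232 genes. The same contrast chose EDA2R, so the rank and the interval are descriptions, and the interval does not hold its nominal coverage. At 24 h the difference was 1.10 (standard error 0.18), or 2.14-fold, and at 48 h it was 0.95 (standard error 0.18), or 1.93-fold. Without untreated 24 h replicate 3, the array that stood apart, EDA2R differed by 0.96 over both times and by 0.97 at 24 h. Signal in a bulk extract cannot tell more RNA per cell from more cells that make the RNA. The plot of the members by array shows these values.

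**Figure D1:**
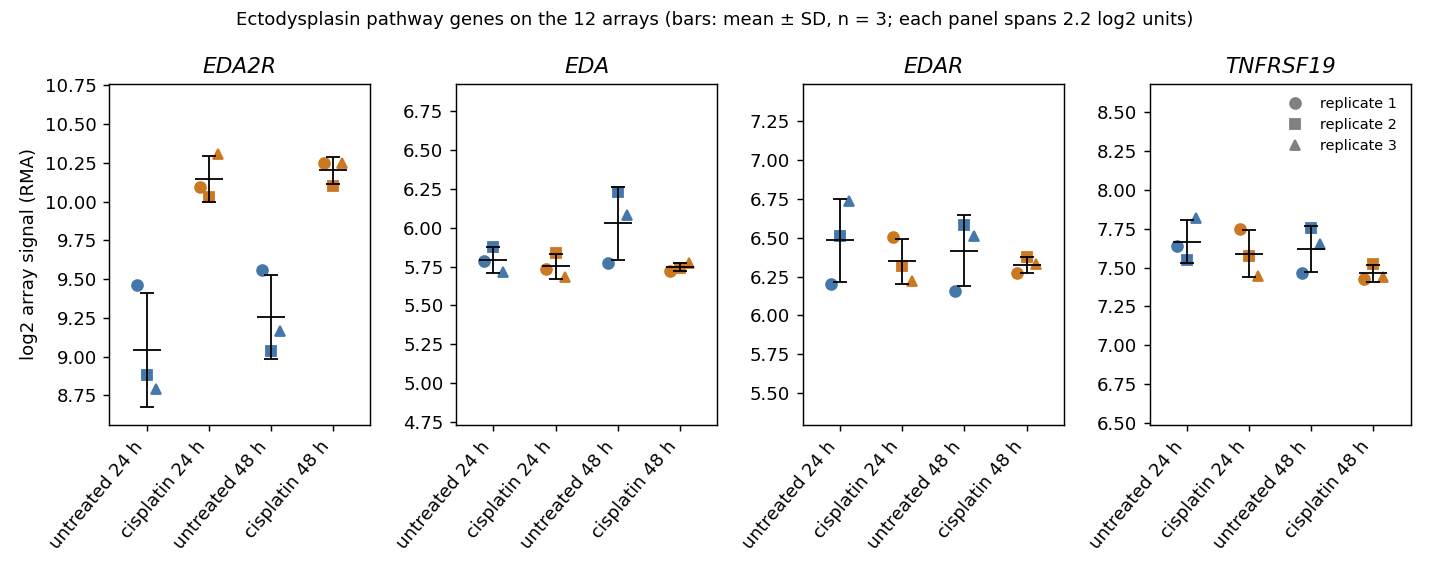
Log2 array signal of EDA2R, EDA, EDAR and TNFRSF19 on each of the 12 arrays, by condition, with marker shape for the replicate number and bars for the mean and SD of 3 arrays. EDA2R after cisplatin lies between 10.03 and 10.31, above every untreated array, while the cisplatin and untreated arrays of the other genes overlap.

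The effect on EDA2R did not change detectably between the times. The difference at 48 h minus that at 24 h was -0.15, with a 95% interval from -0.68 to 0.38 (adjusted p = 0.99998 from limma), an interval that holds changes of either sign. In order, the 4 conditions were cisplatin 48 h (10.20 ± 0.09, SD, n = 3), cisplatin 24 h (10.14 ± 0.15), untreated 48 h (9.25 ± 0.27) and untreated 24 h (9.04 ± 0.37). The first pair and the last pair of neighbours did not differ beyond their spread. Between 24 and 48 h EDA2R changed by 0.21 in untreated cells (adjusted p = 0.901 from limma) and by 0.06 in cisplatin-treated cells (adjusted p = 0.9999 from limma). In each of these 3 contrasts limma called 0% of all genes at an adjusted p under 0.05, with 163 genes at an unadjusted p under 0.05 for the difference between the times, 837 for time in untreated cells and 292 for time in cisplatin-treated cells.

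The region around the start of EDA2R is shown because EDA2R is the gene of this pathway whose signal rose, and its start is the part of the gene where transcription begins. The sequence is from RefSeq (GRCh38.p14, chrX:66639220-66639519, minus strand) and runs from 250 bases before the annotated start to 50 bases from it. It is written 5′ to 3′ on the strand of the gene. Capitals mark a CCAAT box (CCAAT), a GC box (GGGCGG) and an E-box (CACGTG), each searched on both strands.
EDA2R promoter: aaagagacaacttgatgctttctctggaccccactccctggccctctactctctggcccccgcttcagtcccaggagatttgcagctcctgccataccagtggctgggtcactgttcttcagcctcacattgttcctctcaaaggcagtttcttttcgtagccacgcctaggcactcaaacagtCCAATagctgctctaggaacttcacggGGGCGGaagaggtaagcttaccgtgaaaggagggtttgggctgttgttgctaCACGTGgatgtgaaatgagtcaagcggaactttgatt
The CCAAT box begins 66 bases before the start, the GC box 39 bases before it, and the E-box 13 bases after it. Windows of the same length around 35114 starts held a CCAAT box in 34.6%, a GC box in 45.0% and an E-box in 7.26%. The letters of a p53 half-site, found in 6.63% of windows, of an NF-kB site (11.3%) and of a TATA box (TATAAA, 11.5%) were not in this window. A second EDA2R start in the table, at chrX:66639029-66639328, shares part of this sequence and held 6 GC boxes and the same E-box, which lies 178 bases before that start. TNFRSF19 has 2 windows, of which 1 held 5 GC boxes, 1 p53 half-site and 1 NF-kB site and the other held none of the 6 motifs. EDARADD has 3 windows, none with a p53 half-site or NF-kB site. EDA and EDAR were not matched. These matches describe letters in a short window and not binding.

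EDA, the ligand, gave a low signal and no change that passed the test. At 24 h it was at 5.78, 5.88 and 5.71 on untreated replicates 1, 2 and 3 and at 5.74, 5.84 and 5.68 after cisplatin. At 48 h the untreated arrays gave 5.77, 6.23 and 6.08, and the cisplatin arrays gave 5.72, 5.74 and 5.77. Untreated 48 h replicates 2 and 3 were the highest of the 12 arrays, whereas untreated 48 h replicate 1 lay among the cisplatin values. EDA was at 5.91 ± 0.20 in untreated and 5.75 ± 0.05 in cisplatin-treated cells (SD, n = 6 arrays each). The difference was -0.16 (standard error 0.09, 95% interval from -0.35 to 0.02, adjusted p = 0.991 from limma). At 48 h alone it was -0.28 (standard error 0.12), with an unadjusted p of 0.0356 in limma, where 0.520% of all genes were lower at an unadjusted p under 0.05, and an adjusted p of 0.9995. At 24 h it was -0.04 (adjusted p = 0.953 from limma), and the difference between the times was -0.24 (95% interval from -0.61 to 0.13, adjusted p = 0.99998 from limma). Without untreated 48 h replicate 2 the difference over both times was -0.10. In untreated cells EDA was 0.24 higher at 48 h than at 24 h (95% interval from -0.02 to 0.50, adjusted p = 0.863 from limma), and in cisplatin-treated cells the change was -0.004 (adjusted p = 0.9999 from limma).

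EDAR, the receptor of the A1 form, also had a low signal, and its cisplatin and untreated arrays overlapped. Untreated arrays at 24 h gave 6.20, 6.51 and 6.74 on replicates 1, 2 and 3, and cisplatin arrays at 24 h gave 6.51, 6.32 and 6.22. The 48 h values were 6.16, 6.58 and 6.51 without the drug and 6.27, 6.38 and 6.33 with it. The lowest and the highest arrays, untreated 48 h replicate 1 and untreated 24 h replicate 3, were both untreated. The mean was 6.45 ± 0.23 in untreated and 6.34 ± 0.10 in cisplatin-treated cells (SD, n = 6 arrays each). EDAR differed by -0.11 (standard error 0.10, 95% interval from -0.33 to 0.10, adjusted p = 0.991 from limma), with -0.13 at 24 h and -0.09 at 48 h. Without untreated 24 h replicate 3 it differed by -0.05, and EDA then differed by -0.19 and TNFRSF19 by -0.09. Its means fell in the order untreated 24 h (6.48), untreated 48 h (6.42), cisplatin 24 h (6.35) and cisplatin 48 h (6.33), with no neighbours apart by more than their SD.

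TNFRSF19 had a middling signal and differed by -0.12 after cisplatin (standard error 0.08, 95% interval from -0.29 to 0.06, adjusted p = 0.991 from limma). On untreated arrays it was at 7.64, 7.55 and 7.82 at 24 h and at 7.46, 7.75 and 7.65 at 48 h. After cisplatin it was at 7.75, 7.58 and 7.45 at 24 h and at 7.43, 7.53 and 7.44 at 48 h. Of the 6 cisplatin arrays, 3 lay below every untreated array and 0 lay above every one. The share of all genes with such a count was not taken, so nothing is read from it. Means were 7.67 ± 0.14 (untreated 24 h), 7.62 ± 0.15 (untreated 48 h), 7.59 ± 0.15 (cisplatin 24 h) and 7.46 ± 0.05 (cisplatin 48 h, SD, n = 3 each), in the same order as for EDAR. The difference was -0.08 at 24 h and -0.16 at 48 h.

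None of EDA, EDAR and TNFRSF19 passed an adjusted p under 0.05 in limma, over both times, at 24 h or at 48 h, and EDA at 48 h was the only one of these to reach an unadjusted p under 0.05. The background was 0.0281% of all genes over both times, 0.00703% at 24 h and 0% at 48 h, where 164 genes reached an unadjusted p under 0.05. On the scale of the array signal, the lower ends of their intervals over both times were -0.35 for EDA, -0.33 for EDAR and -0.29 for TNFRSF19. These ends describe the signal and do not bound the change in RNA of EDA or EDAR, whose signals were low.

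**Figure D2:**
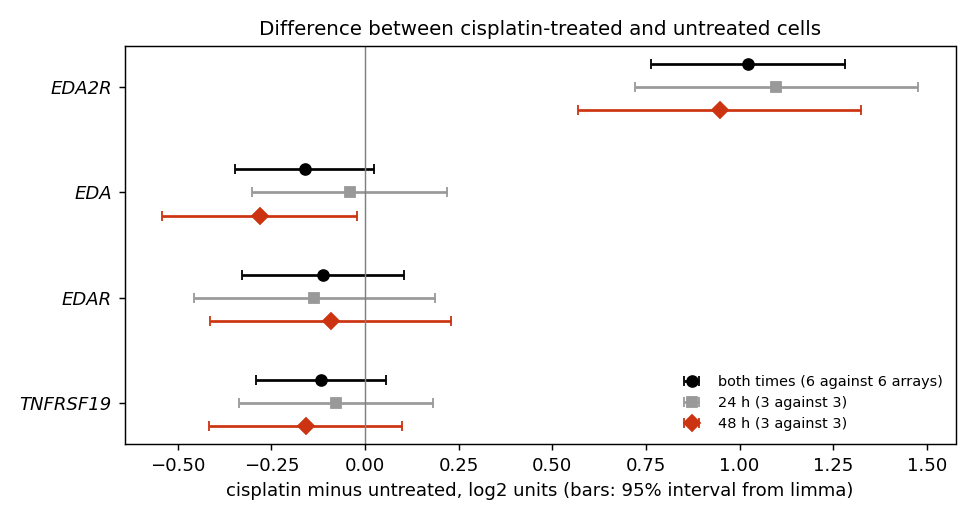
Difference between cisplatin-treated and untreated cells in log2 units for each gene, over both times and at 24 h and 48 h, with 95% intervals from limma. EDA2R lies near 1 in all 3, and the intervals of the other genes include 0 except that of EDA at 48 h, which ends at -0.02.

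Signal differs between probes for reasons other than RNA amount, so the place of each gene among all genes is only a rough guide. By its mean over the 12 arrays EDA2R lay at percentile 75.3 of the 14232 genes, TNFRSF19 at 37.1, EDAR at 19.1 and EDA at 12.9. For EDA2R this mean, 9.66, includes the cisplatin arrays whose rise chose the gene. Its untreated mean was lower, at 9.15, and a percentile for untreated cells alone was not taken. Olfactory receptor genes, which lung cells are not known to use and which were picked as a reference after the values were seen, gave a median of 5.40 over 220 genes, with the 5th percentile at 3.54 and the 95th at 7.07. EDA lay above 64.1% of them, EDAR above 80.9% and TNFRSF19 above 99.5%, while EDA2R lay above all 220. The signals of EDA and EDAR thus fell inside the range of this reference, and a change in either may be hidden at such a level.

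Within a condition, EDA2R and EDAR moved in opposite directions with the spread of the array. EDA2R was 0.42 and 0.30 above its group mean on replicate 1 of the untreated 24 h and 48 h arrays, whose spreads were 2.31 and 2.33. EDAR was 0.28 and 0.26 below its mean on these arrays. On untreated 24 h replicate 3, with the narrowest spread, EDA2R was 0.25 below and EDAR 0.26 above its group mean. The deviations of the 2 genes from their group means had a Pearson correlation of -0.918 over 12 arrays, a description in which both genes share each array. With the spread as a covariate, an alternative added after the data were seen, the cisplatin difference was 0.90 for EDA2R, -0.003 for EDAR, -0.06 for TNFRSF19 and -0.16 for EDA. The cisplatin arrays had spreads between 2.26 and 2.32.

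**Figure D3:**
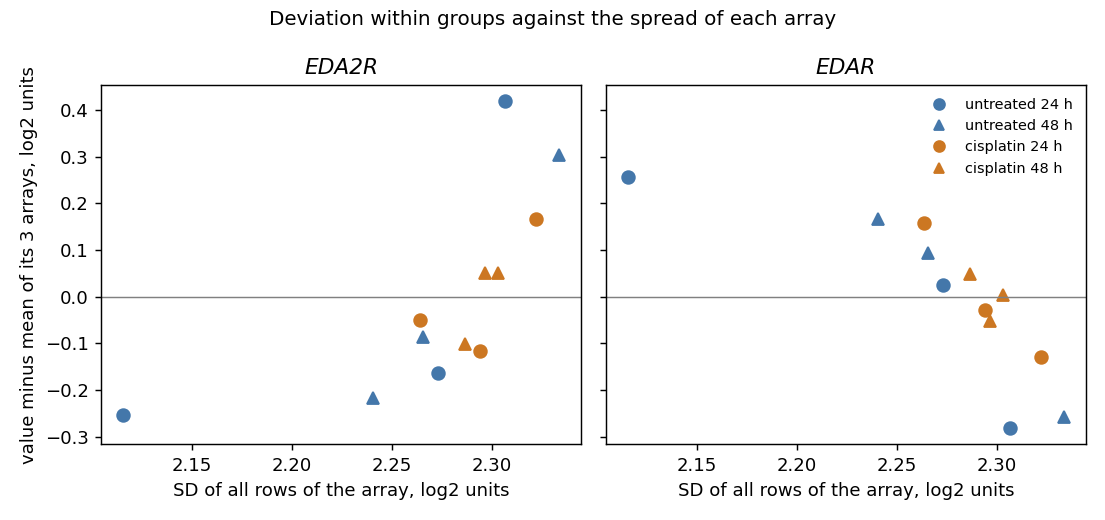
Deviation of EDA2R and EDAR from the mean of the 3 arrays of their condition, in log2 units, against the standard deviation of all rows of the array, for the 12 arrays. EDA2R lies highest and EDAR lowest on the 2 untreated replicate 1 arrays, and the reverse holds on the array with a spread of 2.12.

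Other genes listed for ectodysplasin signalling had small differences between cisplatin-treated and untreated cells. Of 36 listed genes, from furin to the NF-kB subunits and the targets known from skin appendages in mice, 32 were measured, with 22 higher and 10 lower, where 7651 of all 14232 genes were higher and 6581 lower. In limma 0 of the 32 were called at an adjusted p under 0.05, against 0.0281% of all genes, so that this count does not set the list apart from the background. At an unadjusted p under 0.05 it was also 0, against 3.33% of all genes. Their median difference was 0.04, against 0.01 over all genes, and their values ran from -0.11 to 0.20. After quantile normalization the split was 18 higher and 14 lower. The median was 0.06 at 24 h and 0.01 at 48 h, against 0.03 and -0.02 over all genes. Among the 4 measured TRAF adaptors, TRAF6 had 0.06 (standard error 0.09), TRAF3 0.02 (standard error 0.07), and TRAF1 the lowest value of the list, -0.11 (standard error 0.11). TRAF2 has no row of its own. TAB3, a subunit of the TAK1 kinase complex, had the smallest p of the list, at 9.28 ± 0.22 in untreated and 9.48 ± 0.12 in cisplatin-treated cells (SD, n = 6 arrays each, adjusted p = 0.991 from limma).
The next smallest were the adaptor TRAF5 with 0.09, the NF-kB subunit NFKB2 with 0.13 and the NF-kB inhibitor NFKBIA with 0.10. All 5 NF-kB inhibitors had values above 0 over both times, with a median of 0.08. However, 1 was below 0 after quantile normalization and 1 with the array spread as a covariate. Their median was 0.15 at 24 h but -0.003 at 48 h, when NFKBIA had 0.11 and TNFAIP3 -0.04. Among the 8 targets in skin appendages, such as SHH, LEF1 and DKK4, 3 were above 0 and 5 below, with a median of -0.08, which turned to 0.02 (6 above, 2 below) with the array spread as a covariate. Their rows lay at percentiles from 6.29 to 55.6.

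Among other receptors of the TNF family, FAS alone passed. FAS, which starts apoptosis through its death domain, was at 8.45, 7.80 and 7.87 in untreated cells at 24 h and at 8.72, 8.90 and 9.24 after cisplatin. At 48 h it was at 8.25, 7.75 and 7.77 untreated and at 9.07, 8.87 and 8.96 after cisplatin, so that the groups did not overlap and the replicate 1 arrays were again the highest untreated ones. FAS differed by 0.98 (standard error 0.13, adjusted p = 0.00890 from limma), and with EDA2R at 1.02 it stood above the other receptors. Of the 23 measured receptors outside the ectodysplasin group, 9 were higher and 14 lower, with a median of -0.02. With the array spread as a covariate the split turned to 17 higher and 6 lower, with a median of 0.04. FAS was the 1 receptor called, where the background was 0.0281%.
At an unadjusted p under 0.05, 3 of the 23 were higher, FAS and the TRAIL receptors TNFRSF10B with 0.31 (standard error 0.08) and TNFRSF10D with 0.24 (standard error 0.08), and 0 were lower. The share of all genes higher at that threshold was 1.73%. TNFRSF10B and TNFRSF10D did not pass adjustment (adjusted p = 0.420 and 0.991 from limma). TNFRSF10A had 0.16. TNFRSF17, a receptor of plasma cells at percentile 2.51 that was picked after its value was seen, had the lowest value, -0.26 (standard error 0.18). Receptors with a death domain, a feature that EDAR has and EDA2R lacks, had a median of 0.12 over 6 measured, FAS among them. The 14 with neither a death domain nor a decoy role had a median of -0.02. With the array spread as a covariate the median was 0.036 for the 6 and 0.045 for all 23 receptors. The higher median of the death-domain receptors was thus not kept against the whole family in that setting.

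**Figure D4:**
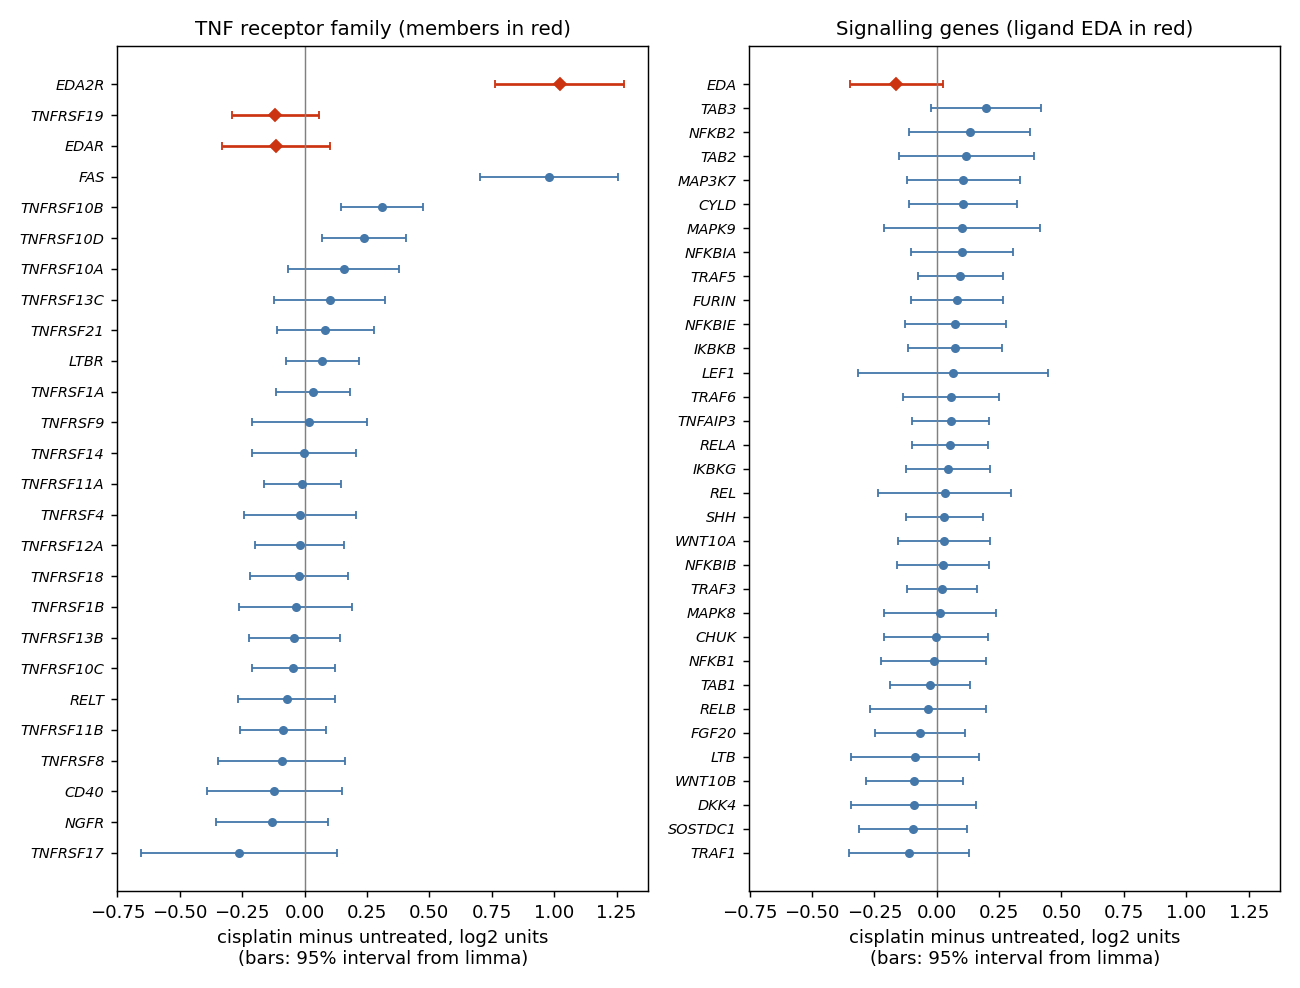
Cisplatin minus untreated in log2 units over both times, with 95% intervals from limma, for 23 receptors of the TNF family below EDA2R, TNFRSF19 and EDAR in red (left) and 32 genes of ectodysplasin signalling below the ligand EDA in red (right). EDA2R and FAS lie near 1 and the blue signalling genes lie between -0.11 and 0.20.

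The genes most like EDA2R were ranked by Pearson correlation over the 12 arrays. They were FAS (0.965), DDB2 (0.962), which recognizes DNA damage, MDM2 (0.955), which degrades p53, SULF2 (0.951), a heparan sulfate sulfatase, XPC (0.951), a damage sensor, CDKN1A (0.945), the p21 inhibitor of the cell cycle, CYFIP2 (0.944), a part of the WAVE complex, and FBXO22 (0.929), a ubiquitin ligase subunit. In all, 20 of the other 14231 genes had a correlation over 0.9. These values hold both the difference between cisplatin-treated and untreated arrays, on which EDA2R was chosen, and the deviations of arrays within conditions. EDA (-0.539), EDAR (-0.636) and TNFRSF19 (-0.625) had negative values.
With the means of the 4 conditions removed, FAS kept a correlation of 0.928, MDM2 0.880 and DDB2 0.876, while XPC had 0.697 and CDKN1A 0.508. The highest were then CASP6 (0.970), an executioner caspase, PLGRKT (0.964), a plasminogen receptor, SH3BGRL (0.964), CLTRN (0.963) and MINPP1 (0.963), an inositol phosphate phosphatase. Here 80 of the other 14231 genes had a correlation over 0.9, against 20 over the values, and 249 had one under -0.9. Correlations this high within conditions were thus not particular to the genes named. All points of these correlations share the same 12 arrays and their spread.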

How the data were processed

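RNA from 12 samples of A549 cells was measured on Affymetrix exon arrays. Per the labels, the authors used Affymetrix Power Tools, Expression Console and RMA, and the deposited values are on a log2 scale, 1 per transcript cluster (22011 rows). Versions and genome build are not given in the sources used here. Rows were paired with genes by the platform annotation: 14432 had 1 symbol, 2408 several and 5171 no entry. The brightest row of each gene was kept, without a filter on low signal, which left 14232 genes. Each gene was modelled in limma 3.58.1 (R 4.3.3) with treatment and time, and, for the separate times, with 4 groups. P-values were two-sided and adjusted over all genes by Benjamini-Hochberg, and intervals are 95%. The procedure was tested on simulated data. Genes named are the members, up to 4 of each list with the smallest p, any called, the markers, TRAF2, TRAF3 and TRAF6, and the 8 and 5 genes most correlated with EDA2R over values and deviations. TNFAIP3, SHH, LEF1, DKK4, TRAF1 and TNFRSF17 were named outside this rule. Alternatives were array weights, a replicate block, quantile normalization, a model with no time term, trended and robust variances, centring of arrays on their median, averaging of the rows of a gene, a filter at the median level, unadjusted thresholds, leaving out each array and, added after the data were seen, the array spread as a covariate. Members and lists were chosen with earlier results of these data known. Promoter windows are from RefSeq (GRCh38.p14). Precision is limited by how many arrays there are. The study's methods drop an outlying sample set at 24 h that they do not name, and all 12 arrays were used here.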

Additional observations from a re-analysis of the deposited data

How the results depend on the processing

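The sign of the cisplatin difference of EDA2R, EDA, EDAR and TNFRSF19 was kept in every alternative that was run, and EDA, EDAR and TNFRSF19 passed an adjusted p under 0.05 in none (smallest 0.168, 0.309 and 0.352 in limma, all with array weights). EDA2R ranged from 0.90 with the array spread as a covariate to 1.07 with array weights, and from 0.96 to 1.11 with 1 array left out. EDAR ranged from -0.15 to -0.003 and EDA from -0.22 to -0.08 over the settings. Without 1 array, EDAR ranged from -0.17 (untreated 24 h replicate 1 left out) to -0.05 (untreated 24 h replicate 3) and EDA from -0.20 to -0.10. Genes below the median level were not tested in that alternative, so it holds no value for EDA, EDAR and TNFRSF19. The count of all genes called, 4, became 17 with the replicate block, 13 with no time term, 12 with quantile normalization, 55 with array weights, 14 with trend and robust variances, 17 with genes above the median level (fewer genes tested), and 14 with the array spread as a covariate, and it was 474 at an unadjusted p under 0.05 and 64 under 0.005. With 1 array left out it ranged from 3 to 18, the highest without untreated 48 h replicate 1. The cause was not tested. The TNF receptors called, 1 in the model used, were 2 with array weights, when TNFRSF10B joined FAS, 3 at an unadjusted p under 0.05 and 2 under 0.005. No pathway gene was called in limma in any of these. The replicate numbers are not stated to pair arrays, and deviations of same-numbered cisplatin and untreated arrays correlated between -0.389 and 0.599. With the replicate block EDA2R stayed at 1.02 (standard error 0.10).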
